A study of Mus musculus with 12 samples.

Results

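Cytochromes P450 of families 1 to 4 are the haem enzymes with which hepatocytes oxidise drugs, toxicants, steroids, bile acids and fatty acids. The members described here are the genes whose symbol is Cyp, a family number from 1 to 4, a subfamily letter and a final number. This pattern found 67 of the 16728 genes listed, and every one matched RefSeq by identifier and symbol. Symbols that end in a letter, such as Cyp4a12a and Cyp4a12b, fall outside it and are described with the P450s of other families.

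RNA was sequenced in 12 libraries of mouse primary hepatocytes, liver cells kept in serum-containing culture, from C57BL/6 animals. There were 3 libraries in each of 4 groups: Fxr-/- cells (KO) with FAC, Fxr-/- cells with AC, wild-type cells (WT) with FAC and wild-type cells with AC. Both agents were given at 100 µM for 24 h. FAC and AC are not spelled out in the labels, and the series title names iron overload. Whether the libraries of a group came from separate animals or cultures is not stated, so p-values measure only the spread between these samples. No untreated cells were among the samples analysed here, so every effect of FAC is relative to AC.

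A P450 enzyme takes electrons from the reductase Por, or partly from cytochrome b5 (Cyb5a), and cannot work without haem, whose synthesis Alas1 starts. Transcription of families 1 to 4 in liver is governed largely by ligand-activated receptors. These are Ahr for family 1, Nr1i3 (CAR) and Nr1i2 (PXR) for the Cyp2b, Cyp2c and Cyp3a genes, and Ppara for the Cyp4a genes. Rxra is the partner of Nr1i3, Nr1i2 and Ppara, and Hnf4a acts on many of the same genes. Fxr, encoded by Nr1h4, is a bile acid receptor that also pairs with Rxra. Cultured primary hepatocytes are known for losing P450 transcripts with time, so the levels below describe cells in culture and not intact liver.

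Libraries held 16464494 to 18335700 estimated reads, over 14258 to 14492 detected genes. Of the 67 members, 49 passed the filter on low counts, which asks for about 10 reads in the libraries of a group, and 18 did not. Among the 49, 40 averaged at least 10 reads in all 4 groups, and 9 did not and could have passed through the group in which they were high. Levels are given in CPM (read counts scaled to library size by TMM) where 1 gene is compared between libraries, and in FPKM, which is also divided by gene length, where genes are compared. Differences are log2 fold changes with their SE from edgeR's quasi-likelihood test, and a gene was called at a Benjamini-Hochberg adjusted p under 0.05 over 12275 tested genes. The gene Nr1h4 itself had 3.54, 4.45 and 4.89 CPM in KO FAC libraries, 9.35, 6.97 and 7.45 CPM in KO AC libraries, 7.00, 6.95 and 7.69 CPM in WT FAC libraries and 13.0, 15.6 and 13.1 CPM in WT AC libraries. It was lower in KO than in WT cells in every library under either agent, but reads remained in KO cells, and the labels do not say which part of the gene was deleted, so its level is no check of the labels.

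The enzymes together made up a larger share of the RNA in KO cells and with FAC. Their reads were 0.645%, 0.667% and 0.702% of all reads in KO FAC libraries, 0.470%, 0.441% and 0.418% in KO AC libraries, 0.1896%, 0.199% and 0.192% in WT FAC libraries and 0.153%, 0.156% and 0.149% in WT AC libraries. The 4 groups did not overlap, and the order was KO FAC, KO AC, WT FAC and WT AC from high to low. Summed over the 67 members, the level averaged 7179 ± 169 CPM in KO FAC cells, 4461 ± 300.3 CPM in KO AC cells, 1897 ± 53.7 CPM in WT FAC cells and 1447 ± 45.9 CPM in WT AC cells (SD, n = 3 each). In a bulk sample, fewer cells that express a gene and less RNA of it per cell cannot be told apart.

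By FPKM, the 4 highest members made up 59.1% of the summed level in KO FAC, 54.6% in KO AC, 41.8% in WT FAC and 41.4% in WT AC cells. The highest in KO FAC cells was Cyp2e1, the ethanol and paracetamol oxidase, at 753 ± 28.0 FPKM, followed by Cyp2a5, the mouse coumarin hydroxylase, at 738 ± 62.8 FPKM, neighbours that do not differ beyond their SDs (n = 3 each). Next came Cyp3a11, the mouse counterpart of human CYP3A4, at 555 ± 13.8 FPKM and Cyp2c29, an arachidonic acid epoxygenase, at 304 ± 12.4 FPKM. In WT AC cells the order was another one. Cyp2a5 led there at 111 ± 5.76 FPKM, Cyp4v3, the counterpart of a human fatty acid hydroxylase, came next at 85.6 ± 2.54 FPKM, and Cyp2e1 followed at 77.4 ± 3.81 FPKM, while Cyp2c29 stood at 16.4 ± 1.97 FPKM.

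**Figure D1:**
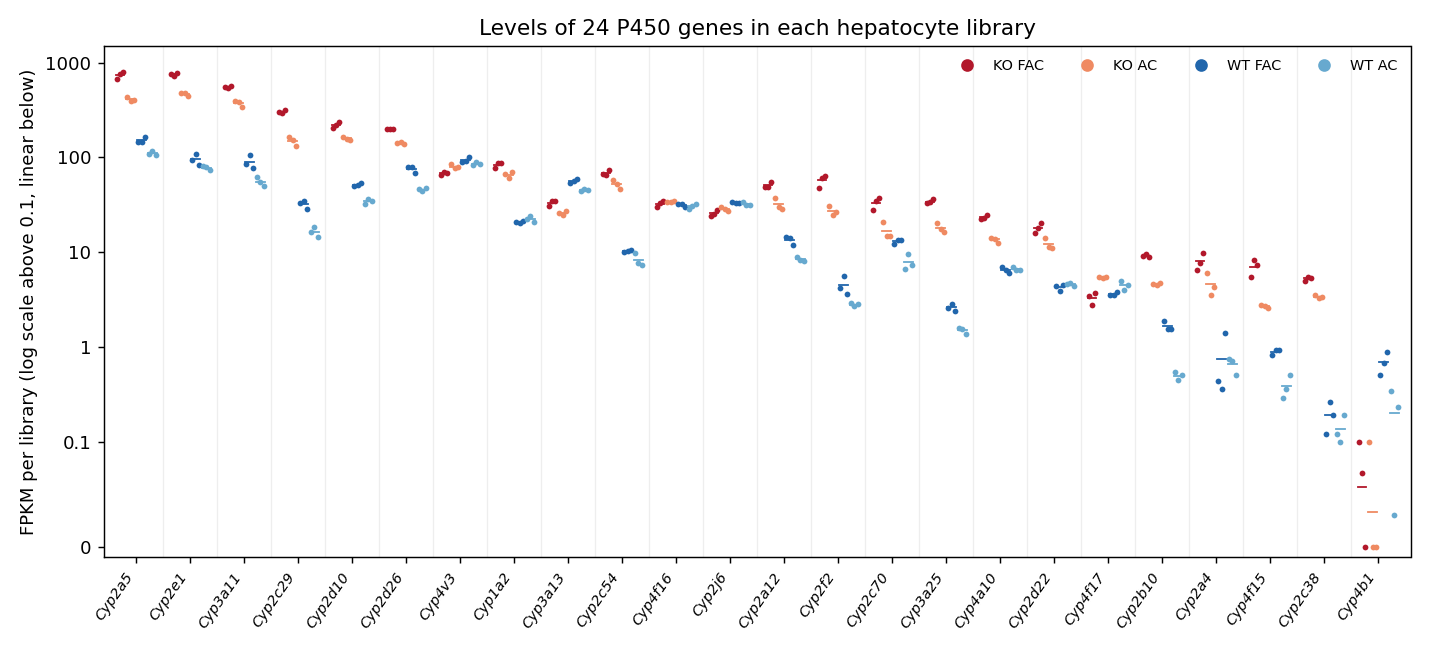
FPKM of 24 P450 genes in each of the 12 libraries, on an axis that is logarithmic above 0.1 and linear below, ordered by their mean over all libraries. Points are libraries and short lines are group means, in the order KO FAC, KO AC, WT FAC, WT AC; most genes fall from left to right within their column, while Cyp4v3, Cyp4f16, Cyp2j6 and Cyp4f17 stay within a narrow range and Cyp3a13 and Cyp4b1 are higher in WT cells.

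These genes lie in tandem clusters of near copies, which bears on how far a single member can be read. Of every 50-base stretch of coding sequence, 73.8% in Cyp2c40, 60.0% in Cyp2c69, 54.8% in Cyp2c67, 46.8% in Cyp4a32 and 45.6% in Cyp2c68 also occurred in another member. The share was 38.1% in both Cyp2a4 and Cyp2a5, 40.3% in Cyp2d10 and 40.6% in Cyp4a10. It was 0% in Cyp2e1, Cyp2f2, Cyp3a13, Cyp4v3, Cyp4a14 and Cyp2c70. How the counting divided shared reads among the near copies was not tested, and members with large shares are uncertain one by one. The coding sequences of Cyp2a4 and Cyp2a5 (chromosome 7, GENCODE vM21 on GRCm38) differ at 23 of 1485 bases, and coding bases 580 to 669 are shown because they hold 5 of these differences, which are in capitals.
Cyp2a4: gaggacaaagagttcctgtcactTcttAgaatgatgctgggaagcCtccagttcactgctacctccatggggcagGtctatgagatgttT
Cyp2a5: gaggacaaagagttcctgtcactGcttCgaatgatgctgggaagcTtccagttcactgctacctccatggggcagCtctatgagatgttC
Only reads that cross such positions can tell the steroid hydroxylase Cyp2a4 from the far more abundant Cyp2a5.

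More P450 genes differed between KO and WT cells than between FAC and AC, as was so for all tested genes. Under AC, 38 of the 49 tested members were called higher and 2 lower in KO than in WT cells. Of all tested genes, 42.9% were called there, with 21.7% of all tested genes higher and 21.2% lower. The members' median log2 fold change was 1.88, against a median of 0.00 over all tested genes. Under FAC, 39 were called higher and 5 lower, where 49.5% of all tested genes were called (24.6% higher and 24.9% lower), and the medians were 2.17 for the members and -0.01 for all genes. At least 2-fold higher were 33 members under AC and 35 under FAC, against 6.53% and 8.61% of all tested genes. At least 4-fold higher were 22 and 27 members, against 2.34% and 3.05%. The 4-fold counts include Cyp2a22, Cyp2b9, Cyp2c38, Cyp2c39 and Cyp2s1, and the 2-fold counts Cyp4a31 as well. These averaged under 10 reads in a WT group and could have passed the filter through KO cells. Cyp2c39 and Cyp2a22 had 3 and 5 reads summed over WT AC libraries, so the size of their folds is not read. KO and WT libraries were fully separated for 39 higher and 2 lower members under AC, where 26.5% of all tested genes were separated and higher and 26.4% separated and lower. Under FAC this held for 40 higher and 5 lower members, against 28.5% and 30.6% of all tested genes. In either direction the shares of all genes were 53.0% under AC and 59.1% under FAC. Among the 41 members with a mean of at least 1 FPKM over the 12 libraries, 34 were higher and 1 lower under AC, and 34 were higher and 3 lower under FAC. Cyp2b9 and Cyp2c38 are still among these 41. The mean includes KO libraries, so a member low in WT cells could pass this cut through KO cells. Cyp2a4, Cyp2b9, Cyp2c38, Cyp2d12, Cyp3a59 and Cyp4f15 averaged under 1 FPKM in both WT groups. The share of all genes at this cut was not counted.

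Family 1 was split. Cyp1a2, which oxidises caffeine and aromatic amines, had 146, 164 and 159 CPM in KO FAC libraries, 118, 109 and 122 CPM in KO AC libraries, 35.7, 34.8 and 36.6 CPM in WT FAC libraries and 36.1, 40.6 and 35.0 CPM in WT AC libraries. Every KO library was above every WT library, with edgeR log2 fold changes of 2.13 ± 0.08 under FAC (adjusted p = 9.06e-11) and 1.64 ± 0.08 under AC (adjusted p = 1.34e-09). Its neighbour Cyp1a1, the Ahr target that acts on polycyclic aromatic hydrocarbons, lay between 3.89 and 7.50 CPM in all libraries and was not called in any comparison.

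The Cyp2a, Cyp2b and Cyp2f genes, which share a cluster on chromosome 7, were higher in KO cells in 7 of 8 tested genes, while Cyp2b23 was not called and Cyp2b13 was not tested. Cyp2a5 had 1148, 1283 and 1305 CPM in KO FAC libraries, 688, 637 and 628 CPM in KO AC libraries, 222, 226 and 255 CPM in WT FAC libraries and 161, 179 and 159 CPM in WT AC libraries. KO exceeded WT in every library, by a log2 fold change of 2.41 ± 0.08 under FAC (edgeR adjusted p = 3.08e-11) and 1.97 ± 0.08 under AC (edgeR adjusted p = 2.74e-10). Cyp2a12, a bile acid and steroid hydroxylase, differed by 2.04 ± 0.11 under FAC and 2.02 ± 0.11 under AC. Cyp2b10, the usual marker of Nr1i3 activity in mouse liver, had 17.3, 17.8 and 16.4 CPM in KO FAC libraries, 8.09, 8.03 and 8.14 CPM in KO AC libraries, 3.22, 2.63 and 2.64 CPM in WT FAC libraries and 0.872, 0.757 and 0.821 CPM in WT AC libraries. The KO libraries were tight and far above the WT libraries, at 2.60 ± 0.12 under FAC and 3.30 ± 0.15 under AC on the log2 scale (edgeR adjusted p = 1.2e-09 and 1.21e-09). Cyp2f2, known for activating naphthalene, had 86.1, 109.8 and 113 CPM in KO FAC libraries, 52.4, 42.2 and 44.1 CPM in KO AC libraries, 6.94, 9.25 and 6.02 CPM in WT FAC libraries and 4.53, 4.38 and 4.49 CPM in WT AC libraries. Its KO over WT log2 fold changes of 3.79 ± 0.15 under FAC and 3.37 ± 0.16 under AC were among the largest of the well-expressed members (edgeR adjusted p = 3.39e-10 and 2.21e-09).

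In the Cyp2c subfamily on chromosome 19, 12 of 14 genes were tested, and the size of the difference changed along the cluster in blocks. At one end, Cyp2c29, Cyp2c39 and Cyp2c38 were called higher in KO cells, and Cyp2c37, Cyp2c54 and Cyp2c50 further along had log2 fold changes between 2.12 and 2.75 under AC. Between these blocks, Cyp2c67, Cyp2c68, Cyp2c40 and Cyp2c69 lay between 0.38 and 1.01 under AC, all called, and these are the 4 with the largest shares of shared sequence in the cluster. Cyp2c70, the enzyme that makes mouse muricholic acids, differed by 1.18 ± 0.17 under AC, and Cyp2c23, which lies apart from the cluster, was not called under AC (-0.13 ± 0.08) and was higher in KO under FAC (0.28 ± 0.08), but not without WT FAC replicate 6 (edgeR adjusted p = 0.053). Under AC the call of Cyp2c67 was lost without KO AC replicate 1 or WT AC replicate 2 or 3 (edgeR adjusted p 0.0558 to 0.0691). Under FAC that of Cyp2c40 (0.23 ± 0.09) was lost without KO FAC replicate 4 or 5, WT FAC replicate 4 or 6 or WT AC replicate 3 (edgeR adjusted p 0.0525 to 0.163). Alternatives other than single libraries ended these calls too. In all, the call was lost in 4 alternatives for Cyp2c23, 7 for Cyp2c67 and 9 for Cyp2c40.

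Cyp2c29 had 531, 519 and 545 CPM in KO FAC libraries, 272, 256 and 215 CPM in KO AC libraries, 52.5, 55.5 and 45.8 CPM in WT FAC libraries and 24.6, 29.2 and 22.5 CPM in WT AC libraries. The groups did not overlap, and KO exceeded WT by a log2 fold change of 3.37 ± 0.11 under FAC (edgeR adjusted p = 3.85e-11) and 3.28 ± 0.11 under AC (edgeR adjusted p = 7.93e-11). Cyp2c38, another epoxygenase, had 9.33, 10.6 and 9.90 CPM in KO FAC libraries, 6.37, 6.37 and 6.11 CPM in KO AC libraries, 0.169, 0.438 and 0.344 CPM in WT FAC libraries and 0.164, 0.27 and 0.383 CPM in WT AC libraries. Its fitted log2 fold changes were 4.93 ± 0.24 under FAC and 4.49 ± 0.25 under AC. It passed the filter through KO cells, and these values rest on 17 reads summed over the WT FAC libraries and 15 over the WT AC libraries, against 485 in KO FAC and 331 in KO AC libraries. Cyp2c39 had 34 reads in KO FAC, 28 in KO AC, 2 in WT FAC and 3 in WT AC libraries, too few in WT for a fold change to be read, although edgeR called it under both agents. The RefSeq range of Cyp2c39 holds the whole of Cyp2c38. Their coding sequences differ at 85 of 1473 bases (GENCODE vM21), and coding bases 286 to 375 are shown because 15 of the differences, in capitals, fall there and give reads that separate the pair.
Cyp2c38: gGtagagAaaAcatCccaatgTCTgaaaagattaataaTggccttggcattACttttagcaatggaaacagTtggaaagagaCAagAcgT
Cyp2c39: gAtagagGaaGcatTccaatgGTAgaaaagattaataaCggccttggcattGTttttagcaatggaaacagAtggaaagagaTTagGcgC
Of all 50-base stretches of Cyp2c38, 12.6% occur in Cyp2c39.

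All 6 tested Cyp2d genes, the mouse relatives of human CYP2D6, were higher in KO cells under both agents, by log2 fold changes between 1.53 and 2.81 under FAC and up to 2.48 under AC. Cyp2d10 had 326, 345 and 357 CPM in KO FAC libraries, 243, 232 and 222 CPM in KO AC libraries, 72.1, 72.6 and 76.0 CPM in WT FAC libraries and 44.2, 51.2 and 48.1 CPM in WT AC libraries. No KO library overlapped a WT library, and the log2 fold change was 2.22 ± 0.07 under FAC and 2.28 ± 0.07 under AC (edgeR adjusted p = 2.88e-11 and 3.68e-11). Cyp2d26 differed less, by 1.53 ± 0.06 under FAC and 1.73 ± 0.06 under AC. Cyp2e1 had 1308, 1255 and 1314 CPM in KO FAC libraries, 768, 782 and 706 CPM in KO AC libraries, 147, 169.9 and 130.4 CPM in WT FAC libraries and 119, 122 and 111 CPM in WT AC libraries. Its KO libraries lay well above the WT libraries, at 3.12 ± 0.09 under FAC and 2.68 ± 0.09 under AC (edgeR adjusted p = 1.26e-11 and 4.54e-11).

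The smaller family 2 genes did not follow one direction. Cyp2j5, a kidney and liver epoxygenase, was higher in KO cells (1.72 ± 0.11 under FAC and 1.58 ± 0.11 under AC). Cyp2j6, near it on chromosome 4, averaged 95.0 ± 4.94 CPM in KO FAC and 112 ± 1.55 CPM in WT FAC cells. Under AC, Cyp2j6 averaged 99.3 ± 6.30 CPM in KO and 105 ± 2.34 CPM in WT cells (SD, n = 3 each). It was lower in KO under FAC (-0.24 ± 0.06, edgeR adjusted p = 0.00686) and not called under AC (-0.09 ± 0.06, adjusted p = 0.295). Cyp2u1, a fatty acid hydroxylase, was lower in KO cells under both agents (-1.02 ± 0.36 and -1.39 ± 0.32) at levels under 2 CPM, a call lost under FAC without KO FAC replicate 4 or WT FAC replicate 4 or 6 (edgeR adjusted p 0.0825 to 0.122). Cyp2s1, a P450 mostly of tissues outside liver, was higher in KO cells (3.04 ± 0.44 and 3.07 ± 0.42), with 123 reads in KO FAC and 156 in KO AC libraries against 16 in WT FAC and 19 in WT AC libraries. Cyp2r1, the liver vitamin D hydroxylase, was not called under FAC (0.05 ± 0.20) or AC (0.25 ± 0.21).

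The Cyp3a genes, which handle a broad range of drugs and steroids, included both a strong rise and a clear fall. Cyp3a11 had 1163, 1114 and 1137 CPM in KO FAC libraries, 770.4, 740.1 and 642 CPM in KO AC libraries, 160.3, 199 and 146 CPM in WT FAC libraries and 109.9, 100.4 and 90.4 CPM in WT AC libraries. Cyp3a25, another liver member, had 65.9, 66.7 and 69.6 CPM in KO FAC libraries, 38.0, 32.7 and 29.8 CPM in KO AC libraries, 4.69, 5.202 and 4.42 CPM in WT FAC libraries and 2.73, 2.65 and 2.41 CPM in WT AC libraries. For both, every KO library was above every WT library, with log2 fold changes of 2.76 ± 0.11 under FAC and 2.84 ± 0.11 under AC for Cyp3a11, and 3.82 ± 0.11 and 3.69 ± 0.12 for Cyp3a25 (edgeR adjusted p at most 4.77e-10 in these comparisons). Cyp3a13, which lies apart from the others on chromosome 5, had 94.6, 105 and 101 CPM in KO FAC libraries, 73.9, 70.7 and 76.8 CPM in KO AC libraries, 147, 154 and 162 CPM in WT FAC libraries and 116, 126 and 121 CPM in WT AC libraries. It went the other way, lower in every KO library than in every WT library, by -0.62 ± 0.06 under FAC (edgeR adjusted p = 4.52e-06) and -0.71 ± 0.07 under AC (edgeR adjusted p = 1.86e-06).

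The start-site windows of 2 pairs of genes are shown so that members that differed in direction or size between KO and WT can be set side by side. They run from 250 bases before to 50 after the start, are from RefSeq's GRCm38.p6 promoter table, and were found for 56 of the 67 members. Cyp3a25 (minus strand, chr5:146009569-146009868) and Cyp3a13 (minus strand, chr5:137921570-137921869) differed in direction in KO cells. Cyp2c29 (plus strand, chr19:39286835-39287134) and Cyp2c40 (minus strand, chr19:39812765-39813064) differed in size. Capitals mark the motifs found on either strand.
Cyp3a25: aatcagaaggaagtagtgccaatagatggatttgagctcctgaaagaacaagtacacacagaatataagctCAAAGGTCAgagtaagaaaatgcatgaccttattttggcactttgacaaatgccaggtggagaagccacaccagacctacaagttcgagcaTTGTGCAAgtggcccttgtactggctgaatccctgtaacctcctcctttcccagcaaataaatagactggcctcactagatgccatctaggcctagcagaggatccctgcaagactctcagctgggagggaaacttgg
Cyp3a13: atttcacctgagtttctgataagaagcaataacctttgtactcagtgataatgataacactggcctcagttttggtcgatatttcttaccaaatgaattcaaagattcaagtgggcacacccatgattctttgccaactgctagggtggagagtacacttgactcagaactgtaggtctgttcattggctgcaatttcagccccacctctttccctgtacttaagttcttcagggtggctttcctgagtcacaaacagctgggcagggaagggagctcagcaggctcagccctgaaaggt
Cyp2c29: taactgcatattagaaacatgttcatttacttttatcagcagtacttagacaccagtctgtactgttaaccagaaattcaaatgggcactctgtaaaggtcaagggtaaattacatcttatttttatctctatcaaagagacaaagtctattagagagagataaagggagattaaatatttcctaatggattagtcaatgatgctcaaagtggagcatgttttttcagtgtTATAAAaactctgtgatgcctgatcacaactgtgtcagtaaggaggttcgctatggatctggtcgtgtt
Cyp2c40: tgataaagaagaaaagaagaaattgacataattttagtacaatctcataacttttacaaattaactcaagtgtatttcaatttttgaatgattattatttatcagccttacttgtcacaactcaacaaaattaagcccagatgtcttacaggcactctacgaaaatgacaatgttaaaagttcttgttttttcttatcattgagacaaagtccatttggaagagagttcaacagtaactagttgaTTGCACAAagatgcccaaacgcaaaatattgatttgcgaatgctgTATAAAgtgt

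Exact letters were searched on both strands, with no mismatch allowed. TGACCTTTG, the core letters of Hnf4a and Ppara sites, occurs in Cyp3a25 at bases -179 to -171 from the start. It was found in 3 of the 56 members' windows (5.36%), against 0.466% of 27025 windows. The 3 are Cyp3a25, Cyp3a57 and Cyp3a59, related genes of the same cluster, and so not independent of each other. TATAAA, the letters of the TATA box, occurs anywhere in the window in 42.9% of the members and 14.2% of all. In Cyp2c29 it lies at -19 to -14, before the start, and in Cyp2c40 at 41 to 46, after it. TTGNGNAA, a C/EBP site, occurs in 16.1% and 13.2%, with matches in Cyp3a25 at -88 to -81 and across the start of Cyp2c40. GCGTG, the core of the Ahr element, occurs in 21.4% and 32.5%, among them Cyp1a1 but not Cyp1a2, and TTCNNNGAA, a STAT5 site, in 3.57% and 8.47%. No exact match to the inverted repeat with a 1-base spacer that Fxr binds, to the Hnf1 site or to TTATGTAA, a PAR bZIP site, was found in the 56 windows. Cyp3a13 held none of these letters in the window shown, which lies inside its RefSeq range and not at the outer end, 137925610. Cyp3a25 has 2 listed starts, of which the first was used. The matches of this pair therefore depend on the start taken. These are matches in short windows and say nothing about binding.

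All 4 Cyp4a genes, fatty acid hydroxylases under Ppara, were higher in KO cells under FAC and 3 under AC, where Cyp4a32 did not pass (0.95 ± 0.38). The call of Cyp4a31 was lost under FAC without WT FAC replicate 4 (edgeR adjusted p = 0.0622) and under AC without KO AC replicate 1 or 2, WT FAC replicate 5 or 6 or WT AC replicate 1 or 3 (adjusted p 0.0512 to 0.159). Cyp4a10 differed by 1.96 ± 0.09 under FAC and 1.12 ± 0.09 under AC, and Cyp4a14 by 2.33 ± 0.12 and 1.88 ± 0.12. In the Cyp4f subfamily, Cyp4f15 and Cyp4f14, leukotriene hydroxylases, were higher by 2.87 ± 0.21 and 1.94 ± 0.10 under AC, while the adjoining Cyp4f13, Cyp4f16 and Cyp4f17 lay between 0.08 and 0.36, with Cyp4f16 and Cyp4f17 called. The call of Cyp4f17 was lost without WT AC replicate 2 (edgeR adjusted p = 0.0595), and both were lost with limma (0.0688 to 0.208). Cyp4f15 had 12.01, 16.2 and 15.1 CPM in KO FAC libraries, 5.68, 5.65 and 5.18 CPM in KO AC libraries, 1.47, 1.75 and 1.72 CPM in WT FAC libraries and 0.545, 0.703 and 0.985 CPM in WT AC libraries, and the 4 groups did not overlap. Cyp4v3 had 199, 211 and 199.96 CPM in KO FAC libraries, 239, 217 and 217 CPM in KO AC libraries, 246, 252 and 275 CPM in WT FAC libraries and 217, 238 and 226 CPM in WT AC libraries. It was lower in KO under FAC (-0.34 ± 0.06, edgeR adjusted p = 0.000722) and not called under AC (-0.01 ± 0.06, adjusted p = 0.886). Cyp4b1, a fatty acid hydroxylase better known from lung, had few reads in KO cells, with 5 summed over KO FAC libraries against 62 over WT FAC libraries. It was called lower in KO under FAC (edgeR adjusted p = 0.00215) and passed the filter through WT FAC cells, so no fold is given. Under AC it had 3 over KO AC libraries against 18 over WT AC libraries and was not called (edgeR adjusted p = 0.0796), although it was without KO AC replicate 1 (adjusted p = 0.0241) or without WT AC replicate 2 (0.0277).

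**Figure D2:**
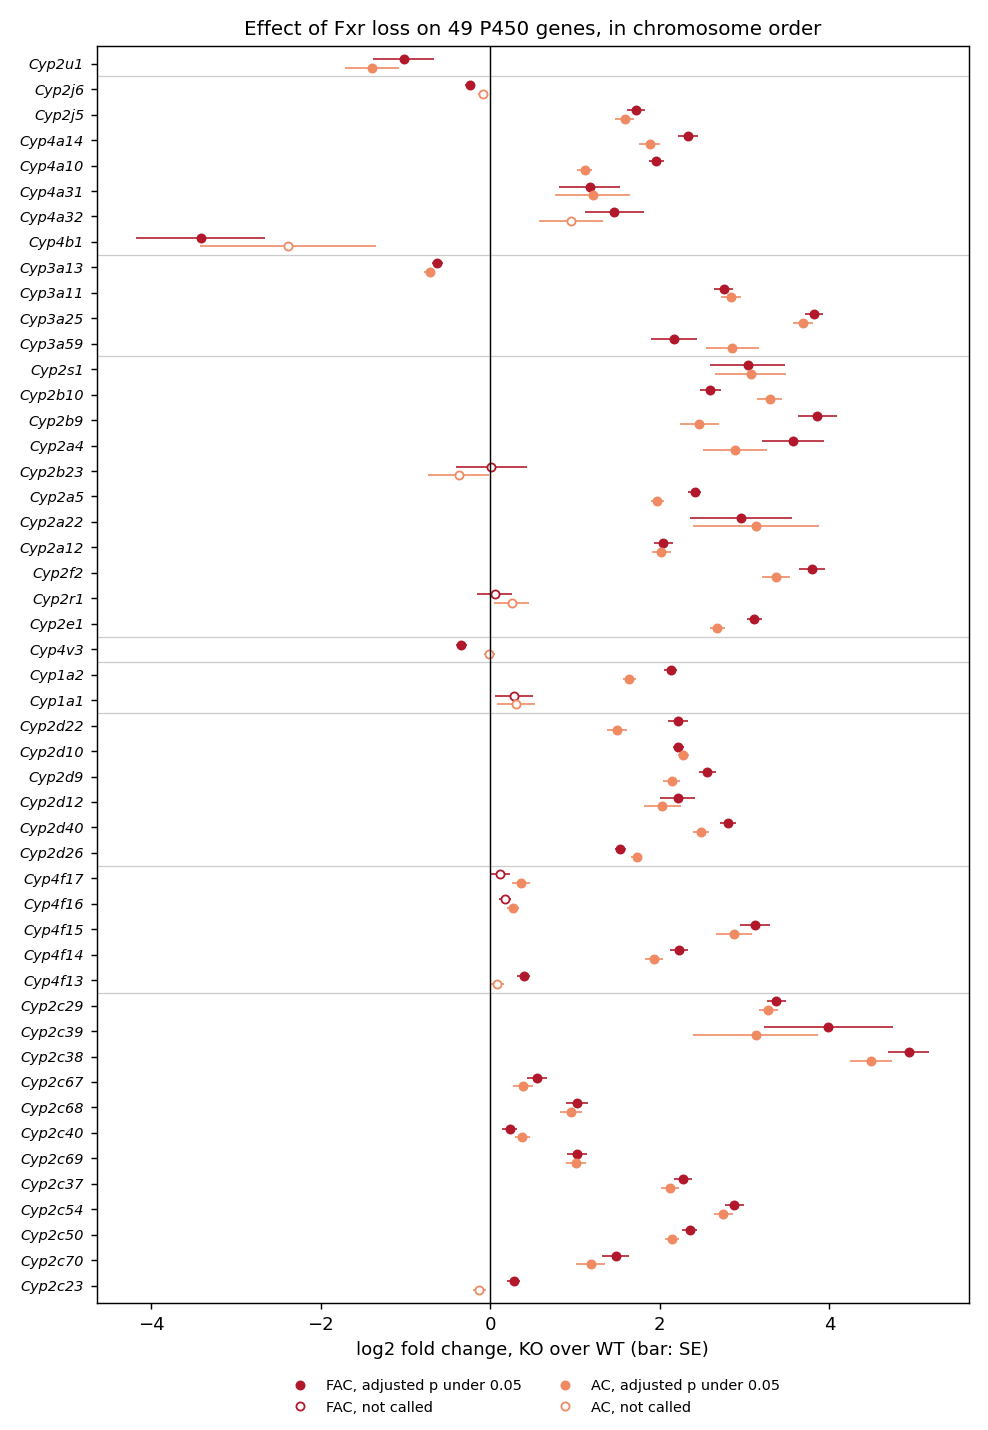
Log2 fold change of KO over WT under FAC (dark red) and AC (orange) for the 49 tested members, in their order along the chromosomes, which grey lines separate. Points are estimates, bars are SEs and open points were not called; all 6 Cyp2d genes lie far right of 0 under both agents, while Cyp3a13 lies left of it at -0.62 under FAC and -0.71 under AC, apart from the other Cyp3a genes.

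Hepatocyte markers moved in the same direction as the P450s between KO and WT cells, but not all of them. Of 11 tested, 8 were higher and 1 lower under FAC (median log2 fold change 1.25) and 8 higher and 2 lower under AC (median 1.24), and Tat, Cps1, Asgr1 and Apoa2 led, at 2.92, 2.83, 2.24 and 2.22 under FAC. Albumin, the classic product of hepatocytes, had log2 fold changes of -0.35 ± 0.04 under FAC (edgeR adjusted p = 2.6e-05) and -0.17 ± 0.04 under AC (edgeR adjusted p = 0.00773). Summed hepatocyte markers ranged over 35726 to 37018 CPM in KO FAC, 27185 to 29168 CPM in KO AC, 33226 to 35114 CPM in WT FAC and 25073 to 26030 CPM in WT AC libraries. Alb made up 71.3% of this sum. The other markers summed to 13808 to 15095 CPM in KO FAC, 9456 to 10306 CPM in KO AC, 6024 to 6412 CPM in WT FAC and 4824 to 5152 CPM in WT AC libraries, so without Alb the sum was higher in every KO library than in every WT library. Of stellate cell and fibroblast markers, 5 of 6 tested were lower in KO under either agent. Their sums were 4.63 to 6.81 CPM in KO FAC, 6.42 to 7.68 CPM in KO AC, 13.0 to 13.4 CPM in WT FAC and 15.5 to 19.1 CPM in WT AC libraries. Reln made up 61.1% of these sums. Without Reln they were 0.392 to 0.931 CPM in KO FAC, 0.688 to 1.40 CPM in KO AC, 5.75 to 6.83 CPM in WT FAC and 8.37 to 9.87 CPM in WT AC libraries. Lum was at 0 in KO FAC, KO AC and WT FAC libraries, Cygb in KO FAC and WT FAC libraries and Col1a2 in KO FAC libraries. Of 13 endothelial markers, 8 were lower and 3 higher in KO under either agent, with sums of 85.6 to 92.1 CPM in KO FAC, 82.6 to 85.7 CPM in KO AC, 74.1 to 79.5 CPM in WT FAC and 65.5 to 70.6 CPM in WT AC libraries. Clec4g was at 0 in all but WT AC libraries. Of 5 macrophage markers, Adgre1, Marco and Lyz2 were lower and Cd68 higher in KO. The whole list, of which Cd68 made up 99.2%, summed to 729 to 864 CPM in KO FAC, 557 to 689 CPM in KO AC, 656 to 707 CPM in WT FAC and 353 to 431 CPM in WT AC libraries. Without Cd68 it summed to 0.850 to 1.69 CPM in KO FAC, 1.44 to 2.87 CPM in KO AC, 4.69 to 8.09 CPM in WT FAC and 9.19 to 12.06 CPM in WT AC libraries. The Kupffer cell markers Clec4f (KO FAC, KO AC), Timd4 (KO FAC, WT FAC) and Cd163 (KO AC, WT FAC, WT AC) were at 0 in the groups named. Cholangiocyte markers summed to 169 to 184 CPM in KO FAC, 114 to 122 CPM in KO AC, 357 to 402 CPM in WT FAC and 405 to 424 CPM in WT AC libraries. Spp1, which made up 76.0% of this sum, was lower in KO, and without it the sum was 86.6 to 99.02 CPM in KO FAC, 58.5 to 72.8 CPM in KO AC, 45.7 to 52.3 CPM in WT FAC and 49.8 to 58.3 CPM in WT AC libraries. Krt7 and Cftr were at 0 in KO FAC libraries. The part of these shifts in the P450 differences was not tested.

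**Figure D3:**
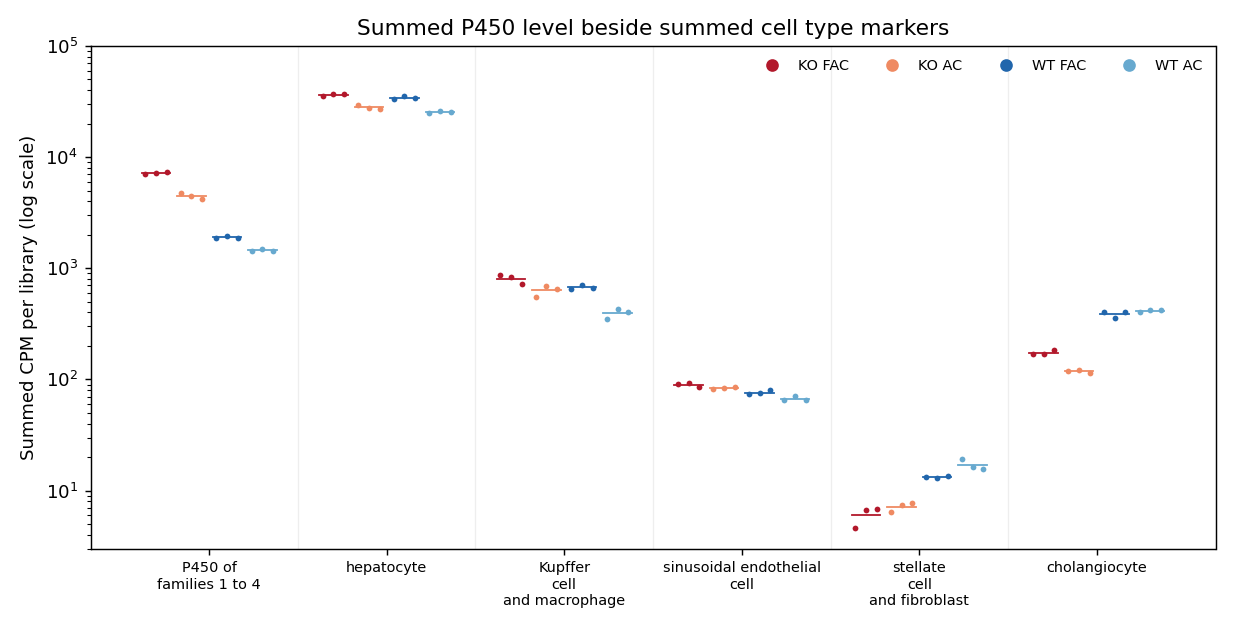
Summed CPM per library (log axis) of the 67 P450 genes and of 5 cell type marker lists, each with KO FAC, KO AC, WT FAC and WT AC from left to right. Points are libraries and lines are means; the summed P450 level spans 7179 ± 169 CPM in KO FAC to 1447 ± 45.9 CPM in WT AC cells (SD), while hepatocyte markers, 71.3% of them Alb, span a narrower range and stellate cell markers stay under 20 CPM.

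As lists, the partners of the P450s and the receptors above them showed smaller median differences between KO and WT cells. Single genes, among them Nr1i3, differed widely. Of all tested genes, 24.6% were higher and 24.9% lower in KO under FAC, and 21.7% and 21.2% under AC. These shares are the background of the marker counts above and the list counts below. Of 20 genes of electron transfer and haem supply, 10 were higher and 3 lower in KO under FAC and 6 were higher and 6 lower under AC, with medians of 0.24 and 0.02. The reductase Por had 392, 323 and 309.5 CPM in KO FAC libraries, 276, 364 and 366 CPM in KO AC libraries, 169, 186 and 145 CPM in WT FAC libraries and 207, 210.4 and 232 CPM in WT AC libraries. KO libraries were all above WT libraries under either agent, by 1.03 ± 0.12 under FAC and 0.63 ± 0.12 under AC (edgeR adjusted p = 2.51e-05 and 0.00145). Alas1, which starts haem synthesis, differed by 0.87 ± 0.09 under FAC and 0.73 ± 0.09 under AC, and Alad, the next enzyme, by 1.37 ± 0.10 and 0.99 ± 0.10. Cyb5a was lower in KO under AC (-0.32 ± 0.10) and not called under FAC (-0.07 ± 0.10).

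In either direction, 49.5% of all tested genes were called under FAC and 42.9% under AC. Among 32 tested receptors and liver transcription factors, 7 were higher and 6 lower in KO under FAC. Under AC, 4 were higher and 5 lower. Their median log2 fold changes were 0.06 and -0.06. Nr1i3 had 0.976, 1.57 and 1.63 CPM in KO FAC libraries, 1.49, 0.553 and 0.931 CPM in KO AC libraries, 0.113, 0.164 and 0.115 CPM in WT FAC libraries and 0.218, 0.108 and 0.109 CPM in WT AC libraries. All KO libraries exceeded all WT libraries (edgeR adjusted p = 9.61e-05 under FAC and 0.000793 under AC). It passed the filter through KO cells, and with 7.05 reads summed over WT FAC and 8.01 over WT AC libraries no fold is given. Nr1i2, Ahr, Ppara, Rxra and Hnf4a were not called, with log2 fold changes between -0.43 (Ahr) and 0.04 (Nr1i2) under AC and between -0.07 (Ahr) and 0.19 (Nr1i2) under FAC. Of 19 targets of Nr1i3 and Nr1i2 outside the P450s, 12 were higher and 6 lower under FAC and 9 higher and 6 lower under AC. Ugt1a1, the bilirubin transferase, was at 1.94 ± 0.09 and 2.01 ± 0.09 and the transporter Abcc4 at -2.16 ± 0.10 and -2.57 ± 0.11. Of 20 Ppara targets, 11 were higher and 2 lower under FAC and 10 higher and 0 lower under AC. At an unadjusted p under 0.05, 11 were higher and 0 lower under AC. The fatty acid transporter Cd36 led, at 3.98 ± 0.28 under FAC and 3.78 ± 0.25 under AC. Of 6 Ahr battery genes, 2 were higher and 3 lower under FAC, and 3 were lower under AC, with Nqo1 at -0.98 ± 0.08 and -0.89 ± 0.08.

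P450s of other families and those whose symbols end in a letter did not share one direction. Of 13 tested, 6 were higher and 2 lower in KO under FAC, and 4 were higher and 5 lower under AC. Cyp17a1, a steroid hydroxylase and lyase, was called higher in KO under both agents, with 411 reads summed over KO FAC and 307 over KO AC libraries against 6 over WT FAC and 14 over WT AC libraries, too few in WT for a fold to be read. Cyp4a12b, a fatty acid hydroxylase, had 0.183, 0.262 and 0.407 CPM in KO FAC libraries, 0.229, 0.0553 and 0.0582 CPM in KO AC libraries, 6.94, 6.57 and 5.91 CPM in WT FAC libraries and 5.02, 5.63 and 4.38 CPM in WT AC libraries. Every KO library lay below every WT library (edgeR adjusted p = 3.82e-08 under FAC and 4.18e-08 under AC), but with 14.2 reads summed over KO FAC and 5.92 over KO AC libraries no fold is given. The near copy Cyp4a12a was called lower under AC (-0.50 ± 0.11) and not called under FAC (-0.06 ± 0.10), and how reads were split between these copies was not tested. With FAC, 3 genes of this list were higher in KO cells, and 3 were higher and 1 lower in WT cells.

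Many P450 transcripts were higher with FAC. By count, more were called higher in KO than in WT cells, as was so for all tested genes (15.0% and 8.70%). In KO cells, 34 of the 49 tested members were higher with FAC than with AC and 1 was lower, where 29.6% of all tested genes were called, 15.0% higher and 14.6% lower. The members' median was 0.59 and that of all genes 0.00. In WT cells, 23 were called higher and 0 lower by edgeR, where 17.2% of all tested genes were called, 8.70% higher and 8.55% lower, and the medians were 0.34 and 0.00. At an unadjusted p under 0.05, 2 members were lower in WT cells (Cyp2u1 and Cyp4f17), DESeq2 called 0 lower, and limma on log2(FPKM + 1) called 1. In KO cells, 37 higher and 2 lower members had FAC libraries fully apart from AC libraries, where 19.7% of all tested genes were apart and higher and 19.1% apart and lower, 38.8% together. In WT cells these were 28 higher and 2 lower members, where 21.6% of all genes were apart in each direction, 43.2% together. At least 2-fold higher were 7 members in KO cells and 5 in WT cells, against 2.48% and 1.01% of all genes, so most rises were smaller than 2-fold. Those in WT cells include Cyp4b1, which averaged 10 reads or more in WT FAC cells alone. Among the 41 members with a mean of at least 1 FPKM, 33 were higher and 1 lower in KO cells and 22 were higher and 0 lower in WT cells.

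Among the Cyp2a, Cyp2b and Cyp2f genes, Cyp2b10 rose most in WT cells. Its FAC libraries exceeded AC libraries in both genotypes, by 1.08 ± 0.11 in KO cells and 1.78 ± 0.17 in WT cells (edgeR adjusted p = 2.17e-05 and 1.7e-05). Cyp2b9 had 6.65, 7.65 and 7.98 CPM in KO FAC libraries, 3.96, 2.66 and 3.72 CPM in KO AC libraries, 0.452, 0.493 and 0.574 CPM in WT FAC libraries and 0.6, 0.541 and 0.711 CPM in WT AC libraries, a rise of 1.11 ± 0.17 in KO cells (edgeR adjusted p = 0.000556), while in WT cells it stayed under 1 CPM and was not called (-0.28 ± 0.31). Cyp2a5 rose by 0.94 ± 0.07 in KO and 0.49 ± 0.07 in WT cells, Cyp2a12 by 0.75 ± 0.10 and 0.73 ± 0.11, and Cyp2f2 by 1.15 ± 0.13 and 0.73 ± 0.18. The WT call of Cyp2f2 was lost without WT FAC replicate 5 (edgeR adjusted p = 0.0593). Cyp2a4 was called in KO cells (0.88 ± 0.29, edgeR adjusted p = 0.0395), a call lost without KO FAC replicate 5 or 6, KO AC replicate 2 or 3 or any one of the WT AC libraries (edgeR adjusted p 0.0507 to 0.135). Its sequence is shared with Cyp2a5 as shown.

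Of the 12 tested Cyp2c genes, 11 rose with FAC in KO cells and 7 in WT cells. The KO call of Cyp2c37 (edgeR adjusted p = 0.0428) was lost without any one library except KO AC replicate 1 (adjusted p 0.0505 to 0.167). With the other alternatives, that call was lost in 16 in all. The WT calls of Cyp2c68 and Cyp2c69 were lost without WT AC replicate 3 and without WT FAC replicate 6 for Cyp2c68 or 5 for Cyp2c69 (edgeR adjusted p 0.0519 to 0.0736). Cyp2c29 rose by 1.10 ± 0.10 in KO and 1.01 ± 0.11 in WT cells, about 2-fold (edgeR adjusted p = 1.27e-05 and 4.6e-05). Cyp2c70 rose by 1.08 ± 0.16 and 0.78 ± 0.17. Cyp2c54 rose by 0.49 ± 0.10 in KO and 0.35 ± 0.11 in WT cells, where its edgeR adjusted p of 0.0473 was near the threshold. That WT call was lost without any one of the WT FAC libraries and without KO FAC replicate 5, KO AC replicate 2 or WT AC replicate 2 or 3 (edgeR adjusted p 0.0616 to 0.185). The 4 genes in the middle of the cluster, with the small differences between KO and WT, rose in KO cells, and 3 of them rose in WT cells, where Cyp2c67 did not pass (0.34 ± 0.12, edgeR adjusted p = 0.0555). Cyp2c40 rose by 0.49 ± 0.09 in KO and 0.64 ± 0.09 in WT cells, and Cyp2c68 by 0.62 ± 0.13 and 0.55 ± 0.13.

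Cyp2d10 and Cyp2d26 rose by 0.56 ± 0.07 and 0.58 ± 0.06 in KO cells and by 0.62 ± 0.07 and 0.77 ± 0.06 in WT cells. Cyp2e1 rose by 0.78 ± 0.08 in KO cells (edgeR adjusted p = 3.07e-05) and by 0.34 ± 0.08 in WT cells (adjusted p = 0.0124), a WT call that was lost without WT FAC replicate 5 (0.0621) and without WT AC replicate 3 (0.062). All 4 tested Cyp3a genes rose in WT cells and 3 in KO cells. The WT call of Cyp3a59 (edgeR adjusted p = 0.0262) was lost without WT FAC replicate 5 or any one of the WT AC libraries (adjusted p 0.0547 to 0.139). Cyp3a11 rose by 0.67 ± 0.11 in KO and 0.75 ± 0.11 in WT cells, and Cyp3a25 by 1.01 ± 0.09 and 0.88 ± 0.14. Cyp3a13, which was lower in KO than in WT cells, rose with FAC in both genotypes (0.44 ± 0.07 and 0.35 ± 0.06).

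Family 4 was mixed. Cyp4f15 showed the largest called rise of the 49 members in KO cells (1.39 ± 0.16, edgeR adjusted p = 5.01e-05) and rose in WT cells too (1.14 ± 0.24, adjusted p = 0.00638). Cyp4f17 had 7.87, 6.61 and 6.99 CPM in KO FAC libraries, 10.4, 10.5 and 11.1 CPM in KO AC libraries, 6.38, 6.68 and 6.77 CPM in WT FAC libraries and 8.89, 7.74 and 8.15 CPM in WT AC libraries, and was the only tested member that edgeR called lower with FAC, in KO cells (-0.57 ± 0.11, adjusted p = 0.00203). In WT cells it did not pass (-0.32 ± 0.11, adjusted p = 0.0637), although FAC libraries lay below AC libraries there too. Of 4 Cyp4a genes, 3 rose in KO cells and 0 were called in WT cells by edgeR or DESeq2, although Cyp4a31 was at an unadjusted p of 0.0431 there by edgeR. The KO call of Cyp4a31 (edgeR adjusted p = 0.0467), which averaged 10 reads or more in KO FAC cells alone, was lost without any one of the 6 KO libraries, WT FAC replicate 5 or 6 or WT AC replicate 3 (adjusted p 0.0573 to 0.151) and with DESeq2 (0.149). Cyp4b1, at 1.49 CPM or less, was called higher in WT cells (1.81 ± 0.59, edgeR adjusted p = 0.0492), but not without any one of the 6 WT libraries, KO FAC replicate 5 or KO AC replicate 2 or 3 (adjusted p 0.0507 to 0.15). Cyp4v3 and Cyp2j6 were not called in KO (-0.14 ± 0.06 and -0.06 ± 0.06) or WT cells (0.18 ± 0.06 and 0.09 ± 0.06).

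**Figure D4:**
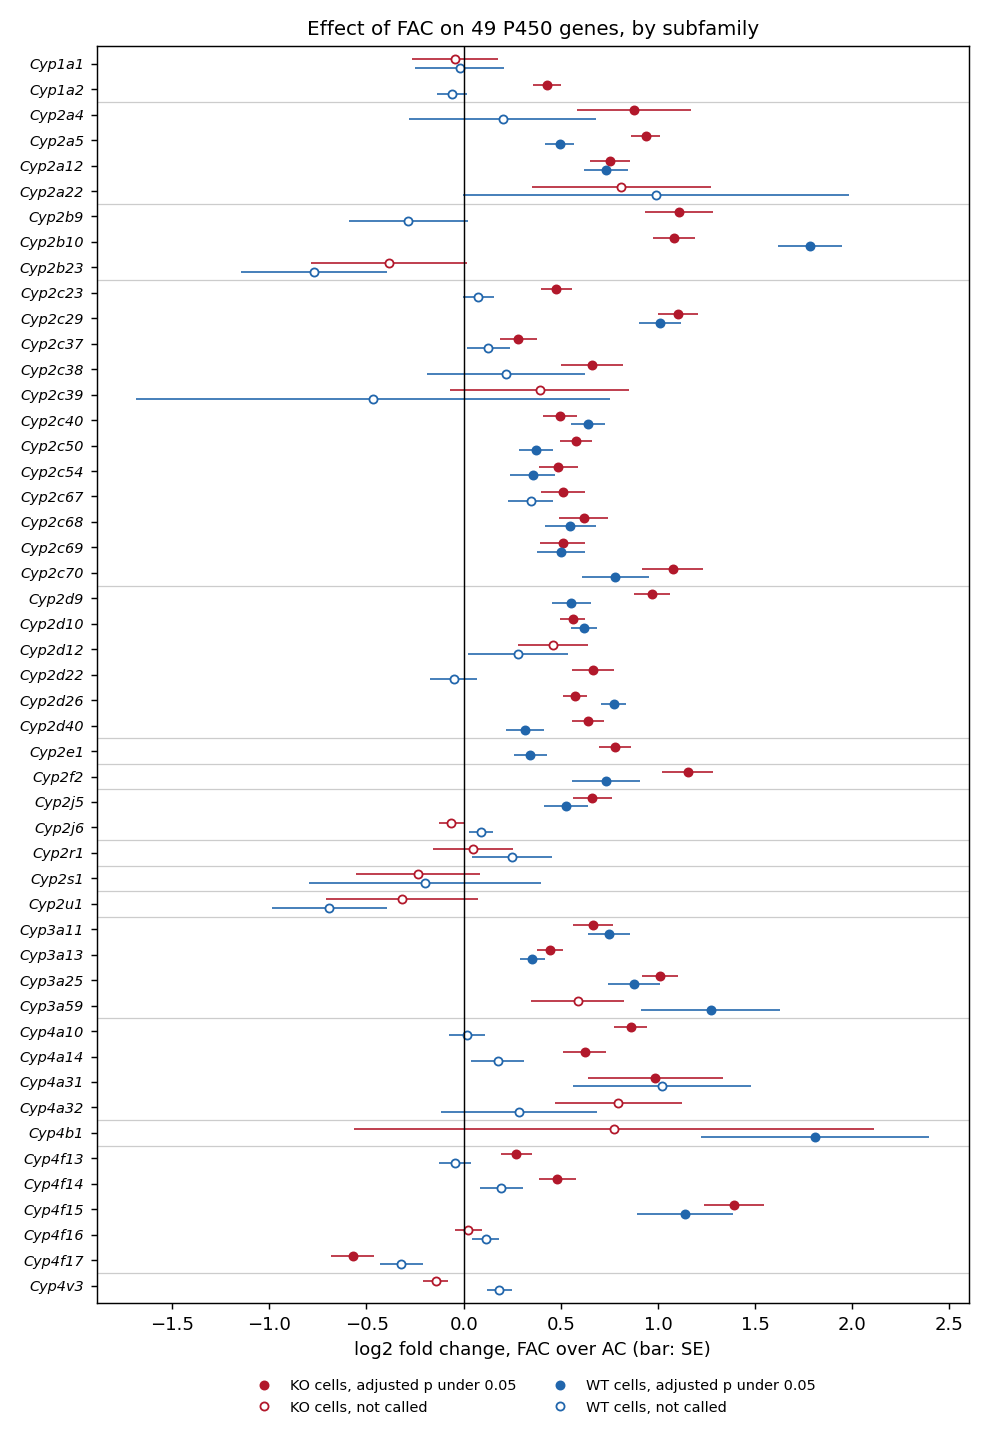
Log2 fold change of FAC over AC in KO (red) and WT cells (blue) for the 49 tested members, grouped by subfamily with grey lines between. Points are estimates, bars are SEs and open points were not called; most points lie right of 0, Cyp4f17 lies left in both genotypes, and the 4 Cyp4a genes include 3 filled red points and no filled blue point.

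Hepatocyte markers moved with FAC as well. Of 11 tested, 9 were higher and 0 lower in KO cells (also at an unadjusted p under 0.05; median 0.64), and 6 were higher and 2 lower in WT cells (median 0.45). Apoa1 was at 0.83 ± 0.08 and 0.94 ± 0.08 and Apob was lower in WT cells (-0.73 ± 0.22). Their part in the rise of the P450s was not tested. With TPM values on a log2 scale, which are shares of the whole RNA, the median of all genes fell by 0.15 in KO cells and by 0.10 in WT cells. Of called genes, 18.5% in KO and 22.9% in WT cells were higher, against 50.6% and 50.4% in the edgeR fit. The members then had 31 higher and 3 lower of 49 in KO cells and 18 higher and 1 lower in WT cells, so their direction did not turn with the scaling. For KO against WT the TPM medians of all genes were -0.17 under FAC and -0.11 under AC, with 28.2% and 32.2% of calls higher against 49.7% and 50.7% in the edgeR fit. The members had 37 higher and 5 lower under FAC and 34 higher and 4 lower under AC.

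Of the partners, Hmox1, which breaks down haem, rose with FAC by 1.80 ± 0.18 in KO and 0.71 ± 0.17 in WT cells. Across the 20 genes of electron transfer and haem supply, 8 rose and 1 fell in KO cells, and 1 rose and 1 fell in WT cells. Of all tested genes, 15.0% rose and 14.6% fell in KO cells, and 8.70% and 8.55% in WT cells. These shares are the background of all list and marker counts with FAC. Alas1 rose in KO cells (0.40 ± 0.09, edgeR adjusted p = 0.00554) and did not pass in WT cells (0.26 ± 0.09, adjusted p = 0.0647). Por was not called in KO (0.03 ± 0.12) or WT cells (-0.38 ± 0.12, adjusted p = 0.0552). Receptors and factors went the other way, with 1 higher and 11 lower of 32 in KO cells and 0 higher and 11 lower in WT cells (0 higher also at an unadjusted p under 0.05). The medians were -0.29 and -0.31, and Nr1h4 was among the lower ones (-0.88 ± 0.16 and -0.95 ± 0.14). Nr1i3, Nr1i2, Ahr, Ppara, Rxra and Hnf4a were not called with FAC in either genotype.

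Of the 19 Nr1i3 and Nr1i2 targets outside the P450s, 7 rose and 4 fell in KO cells, and 3 rose and 4 fell in WT cells, where Aldh1a1 was at -1.37 ± 0.25. Of 20 Ppara targets, 3 rose and 3 fell in KO cells, and 4 rose and 3 fell in WT cells, with Vnn1 lower in both (-1.45 ± 0.11 and -0.76 ± 0.11). Of 6 Ahr battery genes, 3 rose in KO and 2 in WT cells, with Gsta1 at 0.75 ± 0.09 and 0.50 ± 0.09 and Gsta2 at 0.67 ± 0.07 and 0.58 ± 0.07.

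Whether FAC acted differently in KO and WT cells was tested as the difference of its effects. Of the 49 tested members, 4 were called with a larger effect in KO cells and 0 with a smaller one, where 3.15% of all tested genes were called, 1.87% larger and 1.28% smaller. At an unadjusted p under 0.05, 11 were larger and 3 smaller in KO cells, and all genes were not counted at that cut. DESeq2 called 6 members larger and 1 smaller, and 340 larger and 318 smaller of all 16687 genes it took. The members' median difference was 0.15, against -0.01 over all genes. Cyp4a10, the fatty acid hydroxylase, had 46.9, 48.3 and 50.3 CPM in KO FAC libraries, 28.2, 27.6 and 24.4 CPM in KO AC libraries, 13.4, 12.5 and 11.5 CPM in WT FAC libraries and 12.7, 12.2 and 12.04 CPM in WT AC libraries. FAC libraries were above AC libraries in KO cells and overlapped them in WT cells, with effects of 0.86 ± 0.08 and 0.02 ± 0.09 and a difference of 0.84 ± 0.12 (edgeR adjusted p = 0.00486). This call held in every alternative run. Cyp4a10 shares 34.8% of its 50-base stretches with Cyp4a32, and the 4 Cyp4a genes summed gave a difference of 0.70 ± 0.12 (edgeR adjusted p = 0.00943).

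Cyp1a2, with the values given above, rose with FAC in KO cells (0.43 ± 0.07) and not in WT cells (-0.06 ± 0.08), a difference of 0.49 ± 0.10 (edgeR adjusted p = 0.0275). Cyp2d22 had 45.4, 51.3 and 56.2 CPM in KO FAC libraries, 37.5, 30.1 and 29.0 CPM in KO AC libraries, 11.3, 10.1 and 11.5 CPM in WT FAC libraries and 11.2, 11.95 and 10.9 CPM in WT AC libraries. It was higher with FAC in all KO libraries and overlapped in WT cells, with a difference of 0.72 ± 0.16 (edgeR adjusted p = 0.0347). Cyp2a5 rose in both genotypes and more in KO cells, by a difference of 0.44 ± 0.10 (edgeR adjusted p = 0.0392). These 3 calls were lost in 9 to 10 of the alternatives, among them the omission of KO FAC replicate 5, KO AC replicate 2, WT FAC replicate 4, WT FAC replicate 5, WT AC replicate 2 or WT AC replicate 3 for each of them. Omitting KO FAC replicate 6, KO AC replicate 3 or WT FAC replicate 6 ended some of the calls too (over all omissions, edgeR adjusted p 0.0515 to 0.108). Cyp2e1 came close (0.44 ± 0.12, edgeR adjusted p = 0.0582), as did Cyp2b9 (1.39 ± 0.35, adjusted p = 0.0508), and no other member was called by edgeR. Cyp2b10 was not called either (-0.70 ± 0.20, edgeR adjusted p = 0.087), and its sign turned with limma on log2(FPKM + 1), at 0.03.

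**Figure D5:**
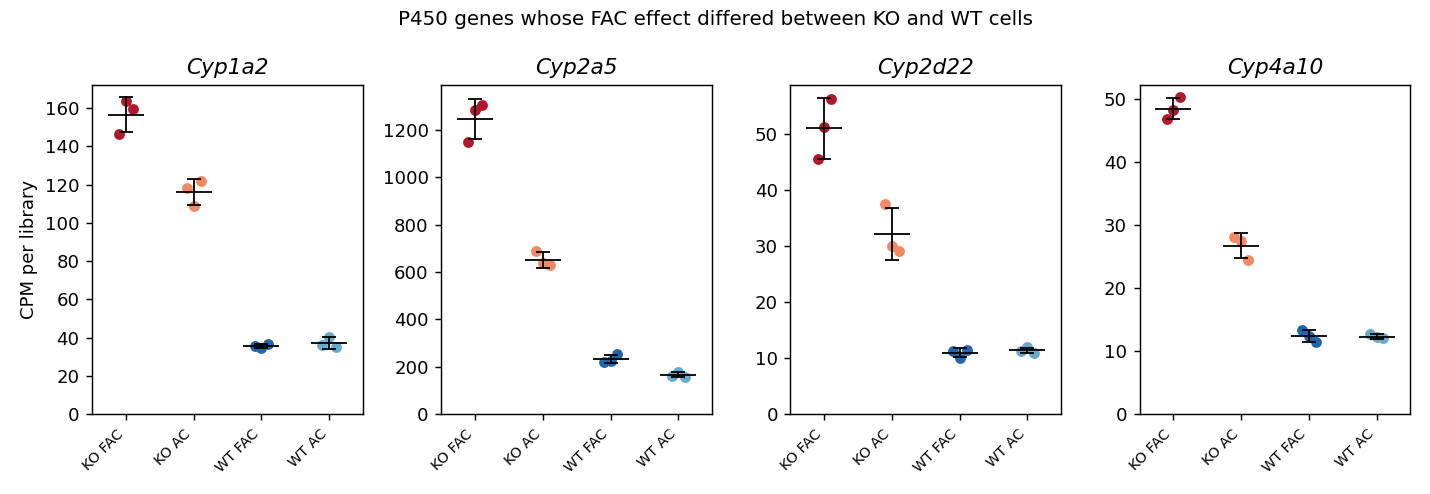
CPM per library of the 4 P450 genes whose FAC effect differed between KO and WT cells, in the order KO FAC, KO AC, WT FAC, WT AC. Points are libraries, black bars are the mean and SD (n = 3); in KO cells FAC lies above AC for all 4 genes, and in WT cells FAC and AC overlap for Cyp1a2, Cyp2d22 and Cyp4a10 but not for Cyp2a5.

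The 18 members that were not tested were Cyp1b1, Cyp2b13, Cyp2c55, Cyp2c65, Cyp2d11, Cyp2d34, Cyp2g1, Cyp2j8, Cyp2j9, Cyp2j13, Cyp2t4, Cyp2w1, Cyp3a44, Cyp3a57, Cyp4f18, Cyp4f37, Cyp4f39 and Cyp4f40. None averaged more than 1 CPM in any group, and no direction is given for them at this depth.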

How the data were processed

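Total RNA of 12 hepatocyte samples in 4 groups was sequenced, per the labels, and analysed from 1 table of the whole series. RSEM and the builds mm10 and GRCm38.p6 are named in the submitters' processing notes. The aligner, the annotation release, the versions and the strand setting are not given in the sources used here, so genes that overlap or lie antisense to another cannot be told apart from it. The table holds estimated counts per gene, which the authors deposited without normalization, and FPKM and TPM values that the authors scaled for gene length and library, per the file headers. The 12 numeric columns that could not be tied to a sample were not used.

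Estimated counts were rounded to whole numbers. Library totals were 16464494 to 18335700 estimated reads. Testing used edgeR 4.0.16 in R 4.3.3 with TMM scaling, a filter on low counts (filterByExpr, minimum 10), and 1 quasi-likelihood fit over all 12 libraries, with Benjamini-Hochberg adjustment over 12275 genes and a threshold of 0.05. The SE of a log2 fold change was its size divided by the square root of F. The fit was tested on simulated data. Alternatives were DESeq2 1.42.0, limma 3.58.1 on log2 of FPKM plus 1 or 0.1 and of TPM plus 1, other scaling and filters, fits of 2 groups, a replicate block, reads summed by subfamily, and each library left out.

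The members, gene lists and tests were chosen with earlier results of these data known. Given with all libraries were, per comparison, the 5 called members per direction that had the largest folds at 5 FPKM or more, and the most abundant member of each main subfamily. List genes were described by counts, with up to 3 called genes of each list. A gene that this rule picks among the P450s of other families is not reported here, though it is counted. Genes outside the rule were named after their values were seen where a count or a call turned on them. Sequences came from RefSeq (GRCm38.p6) and GENCODE vM21. Figures were drawn with matplotlib 3.10.9.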

Additional observations from a re-analysis of the deposited data

Results flagged for a closer look

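The effect of FAC differed between KO and WT cells for 4 P450 genes, by edgeR's test of the difference of the log2 fold changes. The difference was 0.84 for Cyp4a10 (edgeR adjusted p = 0.00486), and this call held in each alternative run. It was 0.72 for Cyp2d22 (edgeR adjusted p = 0.0347), 0.49 for Cyp1a2 (edgeR adjusted p = 0.0275) and 0.44 for Cyp2a5 (edgeR adjusted p = 0.0392). The calls of these 3 were lost in 10, 9 and 10 of the alternatives. Hepatocyte markers also had larger FAC effects in KO cells for 2 of 11 tested and smaller ones for 0 (2 at an unadjusted p under 0.05), with a median difference of 0.29, and their part in the P450 differences was not tested.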

How the results depend on the processing

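Of 113 gene-by-comparison results over 23 settings, 2297 values kept direction and side of the threshold, 60 newly passed it, 75 no longer did and 4 turned round. Those 4, none called with all libraries, were Hnf4a for FAC in KO cells (-0.00123 with TPM, -0.0102 without KO FAC replicate 6, against 0.40 without KO FAC replicate 4), and Cyp4f16 (-0.0315) and Rxra (-0.0549) for KO against WT under FAC with TPM. A further 52 results passed in no setting, and 25 of them changed sign in one. With reads summed by subfamily, fewer units were tested and 10 were called for FAC in KO cells, 8 for FAC in WT cells, 14 for KO against WT under FAC and 12 under AC, where single genes gave 35, 23, 44 and 40. For the difference of FAC effects, 4 members and 387 of all genes were called, against 8 and 584 with limma on log2(FPKM + 1), 7 and 658 with DESeq2, and 1 and 84 with the replicate block; the cause was not tested. Deviations of same-numbered KO and WT libraries from their group means correlated at 0.104, -0.103 and 0.208 under FAC and -0.142, -0.0856 and 0.00809 under AC. With 3 libraries per group, these values cannot decide whether a number marks a shared preparation or day. Pairing of FAC with AC libraries within a genotype was not examined. Fits of only the 2 groups compared called 2198 of all genes for FAC in KO cells (3633 with all groups) and 3352 in WT cells (2117).

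With each library left out in turn, members called ranged over 31 to 35 for FAC in KO cells, 16 (without WT FAC replicate 5 or WT AC replicate 3) to 25 for FAC in WT cells, 1 to 8 for the difference, 41 to 45 for KO against WT under FAC and 38 to 41 under AC. The difference had 8 without KO AC replicate 1, 1 without KO FAC replicate 5, KO AC replicate 2, WT FAC replicate 4 or WT AC replicate 2 or 3, and 2 without KO FAC replicate 6, KO AC replicate 3 or WT FAC replicate 5 or 6. All genes called ranged over 2365 (without KO AC replicate 3) to 4088, 1264 (without WT FAC replicate 5) to 2509, with 1303 without WT AC replicate 3, 1330 without WT FAC replicate 4 and 1373 without WT FAC replicate 6, then 93 (without WT AC replicate 3) to 656 (without KO FAC replicate 4), 5203 to 6378 and 4144 to 5615 in the same order. The count for the difference moved by over 1.5 times without any one library except KO FAC replicate 6 and WT AC replicate 1. KO AC replicate 1 and KO FAC replicate 6 lay to one side of the other KO libraries on the third principal component (7.42% of variance). Without both, an alternative chosen after seeing the data, 6 members and 547 of all genes were called for the difference, and 2958 of all genes for FAC in WT cells. No fold of a single gene between KO and WT is read where fewer than 10 reads were summed over a group's libraries. Counts of members by fold size still include such genes. The call of Cyp2d40 for FAC in WT cells (edgeR adjusted p = 0.0427) was lost without KO FAC replicate 5, KO AC replicate 2, WT FAC replicate 4 or 5 or any one of the WT AC libraries. That of Cyp4f13 for FAC in KO cells (0.0216) was lost without KO FAC replicate 5 or KO AC replicate 1 or 3. Over all alternatives, these calls were lost in 10 and 7. For FAC in KO cells, the calls of Cyp2a4 and Cyp4a31 were lost in 10 and 14. For FAC in WT cells, those of Cyp2c54 and Cyp3a59 were lost in 11 and 6. For KO against WT, Cyp2u1 under FAC lost its call in 6 and Cyp4a31 under AC in 13.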
